A study of Homo sapiens with 12 samples.

Results

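The 10 genes described here carry out gluconeogenesis, the synthesis of glucose from smaller molecules, or the storage and release of glucose as glycogen. They were taken by name from the deposited table of microarray values. A probe set, the group of probes that reads 1 transcript, was used where it had exactly 1 gene symbol. All 10 genes had such a probe set, 1 each, among 18404 genes in all. They are PCK1, PCK2, FBP1, G6PC1, PYGL, GYS1, GYS2, GBE1, PPP1R3B and PPP1R3C.

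The samples were spheroids, floating aggregates of tumour cells, of HepG2, a cell line from a human liver carcinoma. The groups were HIF-2α knockdown, HIF-1α knockdown and wild type HepG2 spheroids, with 4 arrays each. All spheroids were 10 days old and were grown in stirred flasks in the same medium, and the kit used to amplify their RNA was one for 250 microdissected cells. Each group came from 4 spheroid experiments, per the series' design text. The method of knockdown, whether a control construct was present in wild type cells, whether a knockdown line was 1 clone, and where in the spheroid the cells lay are points on which the sources used here give nothing. The labels do not say that the experiments were independent cultures of separately made cells, so the p-values speak to array-to-array spread, which may be technical.

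HIF1A and EPAS1 are the genes of HIF-1α and HIF-2α, the subunits of hypoxia-inducible transcription factors that oxygen destabilises. These factors bind DNA at hypoxia response elements, whose core is ACGTG or GCGTG. In hepatocytes gluconeogenesis passes from oxaloacetate to phosphoenolpyruvate by PCK1 in the cytosol or PCK2 in the mitochondria, on to fructose 6-phosphate by FBP1, and ends when G6PC1 releases free glucose. Glycogen is built by a glycogen synthase, GYS1 in most tissues and GYS2 in liver, and branched by GBE1, and the liver phosphorylase PYGL breaks it down. PPP1R3B and PPP1R3C bring protein phosphatase 1 to glycogen, where it activates the synthase. GYS1, GBE1 and PPP1R3C have been described as hypoxia-induced in other cells.

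Promoters are shown for G6PC1, the gene with the widest differences between the groups, and for GYS1, GBE1 and PPP1R3C because of that earlier description. Each is the 250 bases before the gene's start in RefSeq on build GRCh38.p14, written 5′ to 3′ on the gene's strand. Capitals mark ACGTG or GCGTG on either strand, where CACGT and CACGC are their reverse complements.
G6PC1 (chr17:42900549-42900798, plus strand): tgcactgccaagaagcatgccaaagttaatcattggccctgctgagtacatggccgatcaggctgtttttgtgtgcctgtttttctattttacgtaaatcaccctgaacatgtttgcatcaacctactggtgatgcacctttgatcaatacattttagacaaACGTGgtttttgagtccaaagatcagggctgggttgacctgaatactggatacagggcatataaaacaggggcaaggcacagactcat
GYS1 (chr19:48993310-48993559, minus strand): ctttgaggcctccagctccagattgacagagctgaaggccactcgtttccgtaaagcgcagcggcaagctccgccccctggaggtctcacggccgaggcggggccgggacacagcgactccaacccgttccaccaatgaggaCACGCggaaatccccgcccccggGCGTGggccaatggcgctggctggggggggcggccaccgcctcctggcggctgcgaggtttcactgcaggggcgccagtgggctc
GBE1 (chr3:81761646-81761895, minus strand): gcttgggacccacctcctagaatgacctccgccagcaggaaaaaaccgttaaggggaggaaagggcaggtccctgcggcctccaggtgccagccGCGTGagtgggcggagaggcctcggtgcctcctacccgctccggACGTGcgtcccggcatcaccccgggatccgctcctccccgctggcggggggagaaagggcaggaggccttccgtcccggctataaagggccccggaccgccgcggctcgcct
PPP1R3C (chr10:91633072-91633321, minus strand): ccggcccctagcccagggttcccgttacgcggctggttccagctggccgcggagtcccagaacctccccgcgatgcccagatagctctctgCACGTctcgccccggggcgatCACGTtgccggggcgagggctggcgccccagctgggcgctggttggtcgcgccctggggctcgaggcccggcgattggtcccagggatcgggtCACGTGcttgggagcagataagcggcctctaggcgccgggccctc

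The RefSeq promoter table matched 7 of the 10 genes, and 5 of these 7 windows held ACGTG or GCGTG. The FBP1 window (chr9:94639519-94639768, minus strand) lay inside the gene as annotated, whose upper end is 94640263. The PCK2 window (chr14:24094061-24094310, plus strand) ran past the annotated gene start, 24094171. For these genes the letters found are not all from before the annotated start. Of 35116 promoter windows of the same length, 43.2% held at least 1 of these motifs. G6PC1 had 1 ACGTG, 88 bases upstream of the start. GYS1 had 2 GCGTG, GBE1 had 1 of each, and FBP1 had 1 GCGTG. The window of PPP1R3C had 4 matches to ACGTG over both strands, of which 2 overlap in the palindrome CACGTG, an E-box, at 45 bases upstream. PCK2 and PYGL had neither motif in this window. The full cyclic AMP response element TGACGTCA, read on both strands, was in 0 of the 7 windows and in 1.6% of all. G and C made up 44.0% of the G6PC1 window and between 69.6% and 76.0% of the other 6. These matches describe the letters in the windows and were not tested as binding sites.

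The values are the authors' log2 expression values. HIF1A was lower in HIF-1α knockdown, with 9.25, 9.58, 9.38 and 9.64, against 10.74, 10.64, 10.79 and 10.62 in wild type (limma, log2 fold change -1.23, SE 0.15, adjusted p = 0.00241). When the 3 arrays whose lowest values are raised (named below) were left out, the HIF1A difference was -1.24, and its adjusted p of 0.103 no longer passed. EPAS1 was lower in HIF-2α knockdown, with 9.67, 10.02, 9.87 and 9.98, against 10.96, 10.83, 10.97 and 11.26 in wild type (log2 fold change -1.12, SE 0.09, adjusted p = 0.000206). In neither case did the groups overlap. Adjusted p here is the Benjamini-Hochberg value from limma over all 18404 genes within a comparison, and a gene was called changed when it lay below 0.05.

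The 9 measured of 11 hepatocyte markers, among them ALB and APOB, lay between 10.6 and 14.27 on every array. Of 6 measured leukocyte markers PTPRC, the pan-leukocyte surface phosphatase, lay between 6.41 and 6.70, with 3.21% of genes lower in mean signal, while LYZ, lysozyme, lay between 12.79 and 13.73 and CD68 between 9.74 and 10.35. The 5 fibroblast markers lay between 6.29 (LUM) and 7.78 (COL1A1, with 48.9% of genes lower in mean signal). Of the 5 endothelial markers 4 lay between 6.58 and 7.13, and PECAM1 lay between 7.73 and 8.49, with 57.7% of genes lower. PDGFRB, a fibroblast marker, fell in HIF-2α knockdown against wild type (limma, log2 fold change -0.40, adjusted p = 0.0109) and against HIF-1α knockdown (-0.35, adjusted p = 0.0105). CD14, a leukocyte marker, was lower in HIF-2α than in HIF-1α knockdown (-0.39, adjusted p = 0.00899). No other fibroblast, endothelial or leukocyte marker was called in the 3 comparisons, and the part of these markers in the results was not tested. The hepatocyte marker mean per array was 12.13 to 12.75 in HIF-2α knockdown, 12.08 to 12.36 in HIF-1α knockdown and 12.43 to 12.90 in wild type, with 0 of the 9 called in any comparison (limma) and 6 at an unadjusted p under 0.05 in HIF-1α knockdown against wild type. The mean of 34 measured ribosomal protein genes, followed as a technical list, was 11.81 to 12.34 in HIF-2α knockdown, 11.67 to 12 in HIF-1α knockdown and 11.95 to 12.51 in wild type. On 3 arrays, replicate 4 of HIF-2α knockdown and replicates 1 and 2 of wild type, the lowest values were raised: the 0.1 percentile lay at 6.33 to 6.35, against 6.11 to 6.23 on the other 9 arrays.

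The question of each comparison was which transcripts differ when HIF1A or EPAS1 is reduced, and whether the knockdowns differ from each other. None of the 10 genes was called in any of the 3 comparisons, while limma called 0.962% of all genes in HIF-1α knockdown against wild type, 0.788% in HIF-2α knockdown against wild type and 2.77% between the knockdowns. With shares that small, a count of 0 among 10 genes does not set them apart from the rest. At an unadjusted p under 0.05 the members numbered 1 (PCK1), 2 (G6PC1 and PCK1) and 1 (G6PC1), against backgrounds of 13.2%, 12% and 13.6% of all genes. The groups did not overlap for 1 member in each comparison (PCK1, G6PC1 and G6PC1), against 7.84%, 5.31% and 9.08% of all genes. The members' median log2 fold change was -0.08 in HIF-1α knockdown and -0.03 in HIF-2α knockdown against wild type, and 0.02 between the knockdowns, beside medians of 0.00, -0.01 and -0.01 over all genes. Of the 10 members, 8 were negative in HIF-1α knockdown and 6 in HIF-2α knockdown against wild type, beside 8837 and 10190 of all 18404 genes. The 2 comparisons with wild type share the wild type arrays, so a high or low wild type array enters both. RNA from bulk cells was measured, so fewer cells with a transcript and less of it per cell cannot be told apart.

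**Figure D1:**
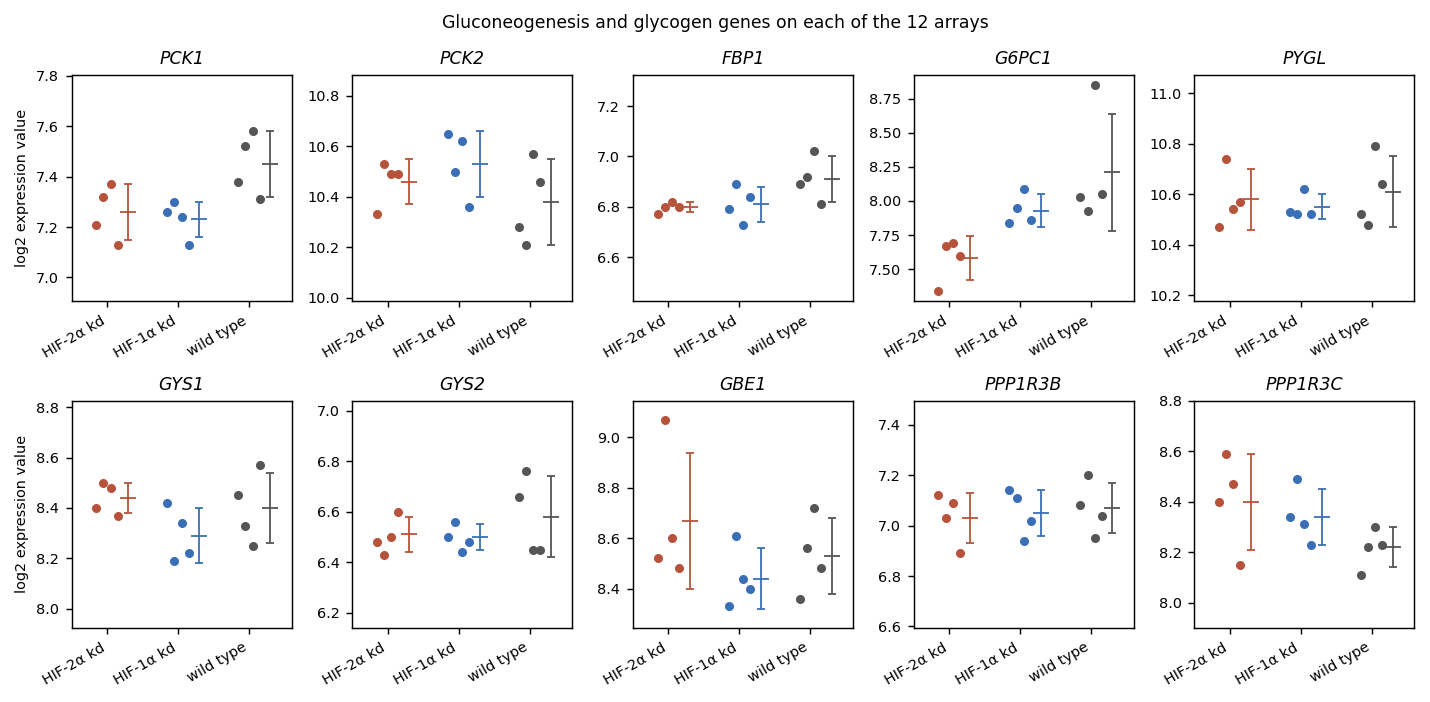
Log2 expression value (y axis) of each of the 10 genes on each array, in HIF-2α knockdown (kd), HIF-1α knockdown and wild type spheroids (x axis), with points in order of replicate number and the mean ± SD beside them (n = 4 arrays per group). G6PC1 lies lowest on the 4 HIF-2α knockdown arrays, and its wild type replicate 3 stands high at 8.85, while for most other genes the groups overlap.

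G6PC1, the catalytic subunit of glucose 6-phosphatase, had the widest difference of the 10. Its log2 values were 7.34, 7.67, 7.69 and 7.60 in HIF-2α knockdown, 7.84, 7.95, 8.09 and 7.86 in HIF-1α knockdown, and 8.03, 7.93, 8.85 and 8.05 in wild type. Every HIF-2α knockdown array lay below every array of both other groups. Of the 4 wild type arrays 3 lay within the range of HIF-1α knockdown, and replicate 3 lay above it. Groups that do not overlap with the knockdown lower were seen for 1 of the 10 members in HIF-2α knockdown against wild type, against 1.91% of all genes, and for the same gene between the knockdowns, against 5.35%.

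The mean of G6PC1 was 7.58 ± 0.16 in HIF-2α knockdown and 8.21 ± 0.43 in wild type (SD, n = 4 each), a ratio of 64.3% of the wild type signal. The difference of -0.64 had an SE of 0.16, a 95% interval of -0.99 to -0.29 and an adjusted p of 0.0958 by limma, so it did not pass the threshold. In HIF-1α knockdown the mean was 7.93 ± 0.12, and the difference from wild type was -0.28 (SE 0.16, 95% interval -0.63 to 0.07, adjusted p = 0.530). HIF-2α knockdown differed from HIF-1α knockdown by -0.36 (SE 0.16, adjusted p = 0.352).

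Whether G6PC1 passed the threshold depended on the setting. Without wild type replicate 3, at 8.85, the difference of HIF-2α knockdown from wild type was smaller, at -0.42, but its SE fell to 0.09 and it passed (limma adjusted p = 0.0399). The difference between the knockdowns stayed at -0.36 and also passed (SE 0.08, adjusted p = 0.0316). HIF-1α knockdown differed from wild type by -0.07 without it (adjusted p = 0.755). With a prior variance that follows the mean level (limma trend) and all 12 arrays, G6PC1 passed in HIF-2α knockdown against wild type (adjusted p = 0.0199). It also passed there with the replicate number as a block (limma adjusted p = 0.0288), though the labels do not say that equal numbers share an experiment. With the 3 raised-floor arrays left out the difference from wild type was -0.88 (SE 0.21, adjusted p = 0.159) for HIF-2α knockdown, and for HIF-1α knockdown it was -0.51 (SE 0.20, 95% interval -0.96 to -0.06, adjusted p = 0.355). That setting keeps only wild type replicates 3 and 4, at 8.85 and 8.05, so the high replicate 3 weighs more in the wild type mean. Over all 21 alternative settings the HIF-2α knockdown difference was negative throughout, from -0.88 to -0.42, with adjusted p from 0.0199 to 0.233. Wild type replicate 3 also had the highest mean of all 12 arrays for the ribosomal protein genes, at 12.51, and for the hepatocyte markers, at 12.90. Their part in the G6PC1 result was not tested.

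**Figure D2:**
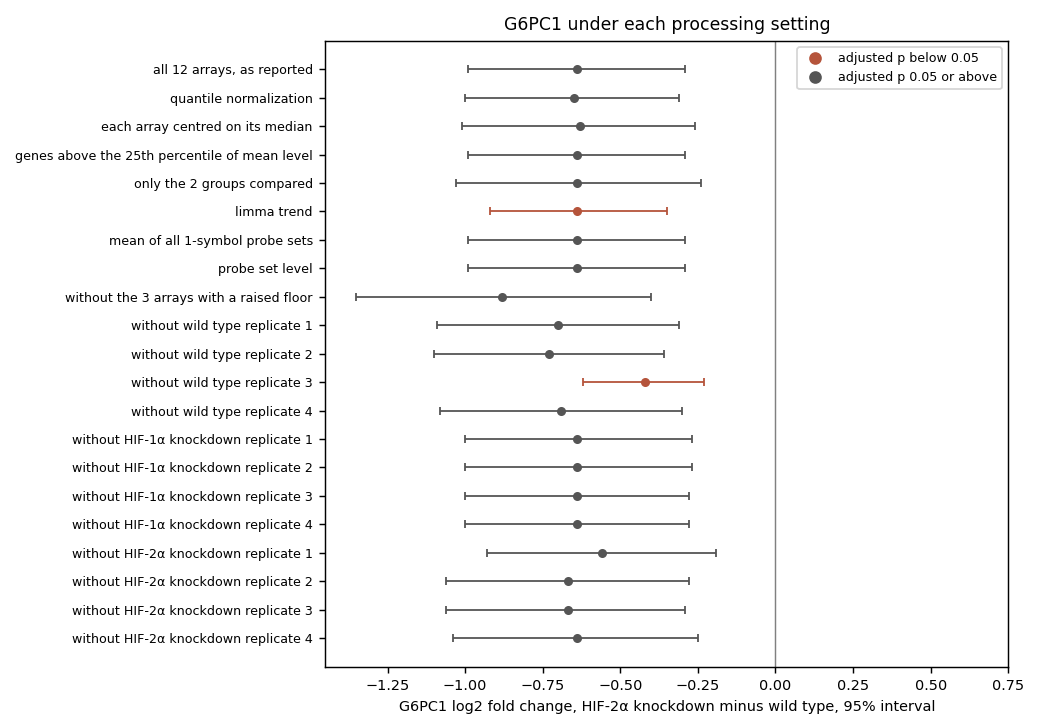
Log2 fold change of G6PC1 in HIF-2α knockdown minus wild type (x axis), with its 95% interval, under each processing setting named on the y axis. Red points had an adjusted p below 0.05. The fit with the replicate number as a block, which also passed (limma, -0.64, adjusted p = 0.0288), is not drawn. All points lie below 0, and the value without wild type replicate 3, at -0.42, is the nearest to 0 and has the narrowest interval.

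PCK1, the cytosolic phosphoenolpyruvate carboxykinase, had values of 7.21, 7.32, 7.37 and 7.13 in HIF-2α knockdown, 7.26, 7.30, 7.24 and 7.13 in HIF-1α knockdown, and 7.38, 7.52, 7.58 and 7.31 in wild type. The HIF-1α knockdown arrays all lay below the wild type arrays, with 7.30 and 7.31 as the nearest values, which held for 1 of the 10 members and 2.11% of all genes. The hepatocyte markers were also lower in HIF-1α knockdown, all 9 negative with a median log2 fold change of -0.37, and 33 of 34 ribosomal protein genes were negative, with a median of -0.43. Their part in the PCK1 difference was not tested. The HIF-2α knockdown arrays overlapped with wild type. The PCK1 difference from wild type was -0.22 for HIF-1α knockdown (SE 0.07, adjusted p = 0.179) and -0.19 for HIF-2α knockdown (SE 0.07, adjusted p = 0.297), and between the knockdowns it was 0.03 (95% interval -0.13 to 0.18). It passed under none of the 21 alternative settings in any of the comparisons.

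PCK2, the mitochondrial form, did not share this pattern in sign. Its values ran from 10.33 to 10.53 in HIF-2α knockdown, from 10.36 to 10.65 in HIF-1α knockdown and from 10.21 to 10.57 in wild type. The groups overlapped, with differences from wild type of 0.15 in HIF-1α knockdown (SE 0.09, adjusted p = 0.515) and 0.08 in HIF-2α knockdown (SE 0.09, adjusted p = 0.806).

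FBP1, fructose-1,6-bisphosphatase, ran from 6.77 to 6.82 in HIF-2α knockdown, from 6.73 to 6.89 in HIF-1α knockdown and from 6.81 to 7.02 in wild type. The difference from wild type was -0.12 for HIF-2α knockdown (SE 0.05, adjusted p = 0.421) and -0.10 for HIF-1α knockdown (SE 0.05, adjusted p = 0.478). The 4 gluconeogenic enzymes had median log2 fold changes of -0.16 in HIF-1α knockdown and -0.15 in HIF-2α knockdown against wild type, with PCK1, FBP1 and G6PC1 negative and PCK2 positive in both.

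PYGL, the liver glycogen phosphorylase, had nearly the same mean in the 3 groups, with 10.58 ± 0.12 in HIF-2α knockdown, 10.55 ± 0.05 in HIF-1α knockdown and 10.61 ± 0.14 in wild type (SD, n = 4 each). Its difference from wild type was -0.03 in HIF-2α knockdown (95% interval -0.19 to 0.13) and -0.06 in HIF-1α knockdown (95% interval -0.22 to 0.10). The ranges of the groups overlapped.

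GYS1, the glycogen synthase of most tissues, had values of 8.40, 8.50, 8.48 and 8.37 in HIF-2α knockdown, 8.42, 8.19, 8.34 and 8.22 in HIF-1α knockdown, and 8.45, 8.33, 8.25 and 8.57 in wild type. The wild type range overlapped with that of both knockdowns. Against wild type GYS1 stood at 0.03 in HIF-2α knockdown (95% interval -0.13 to 0.19) and at -0.11 in HIF-1α knockdown (95% interval -0.27 to 0.05), and the difference between the knockdowns was 0.14 (SE 0.07, adjusted p = 0.453). The sign in HIF-2α knockdown against wild type turned to -0.03 after quantile normalization.

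GYS2, the liver synthase, ran from 6.43 to 6.60 in HIF-2α knockdown, from 6.44 to 6.56 in HIF-1α knockdown and from 6.45 to 6.76 in wild type. Only 3.6% of genes had a lower mean signal, and the values carry no detection calls, so a signal this near the floor cannot be told from none. The 2 highest GYS2 values, 6.66 and 6.76, were those of wild type replicates 1 and 2, the wild type arrays with a raised floor. With the 3 raised-floor arrays left out, its difference from wild type was 0.05 in HIF-1α knockdown and 0.03 in HIF-2α knockdown, against -0.08 and -0.07 with all arrays. The signals of FBP1, PPP1R3B and PCK1 were also low, with 20.8%, 30.5% and 39.8% of genes below them, a statement about probe signal and not about transcript number.

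GBE1, the branching enzyme, had values of 8.52, 9.07, 8.60 and 8.48 in HIF-2α knockdown, 8.33, 8.61, 8.44 and 8.40 in HIF-1α knockdown, and 8.36, 8.56, 8.72 and 8.48 in wild type. HIF-2α knockdown replicate 2 was the highest array, and the groups overlapped. The differences were 0.14 for HIF-2α knockdown against wild type (SE 0.12, adjusted p = 0.726), -0.08 for HIF-1α knockdown against wild type (SE 0.12, adjusted p = 0.832) and 0.22 between the knockdowns (SE 0.12, adjusted p = 0.480). Without HIF-2α knockdown replicate 2 the first was 0.00 and the last 0.09.

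PPP1R3C, a glycogen-targeting subunit of protein phosphatase 1, had values of 8.40, 8.59, 8.47 and 8.15 in HIF-2α knockdown, 8.34, 8.49, 8.31 and 8.23 in HIF-1α knockdown, and 8.11, 8.22, 8.30 and 8.23 in wild type. In each knockdown 3 of 4 arrays lay above the highest wild type array, at 8.30, and 1 lay within the wild type range. The difference from wild type was 0.19 in HIF-2α knockdown (95% interval 0.00 to 0.37, adjusted p = 0.422) and 0.13 in HIF-1α knockdown (95% interval -0.06 to 0.31, adjusted p = 0.616). PPP1R3B, the liver glycogen-targeting subunit, ran from 6.89 to 7.12 in HIF-2α knockdown, from 6.94 to 7.14 in HIF-1α knockdown and from 6.95 to 7.20 in wild type, and its 3 differences lay between -0.04 and -0.01.

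In each of the 3 comparisons the 95% interval of the signal difference lay within 1.5-fold in either direction for 9 of the 10 members, and G6PC1 was the exception. GYS2 is among the 9, and since its signal lay near the floor its interval sets no bound on a change in transcript. The signals of FBP1, PPP1R3B and PCK1 were also low, and without detection calls their intervals may bound probe signal only. The G6PC1 intervals reached 1.98-fold lower in HIF-2α knockdown and 1.55-fold lower in HIF-1α knockdown against wild type.

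**Figure D3:**
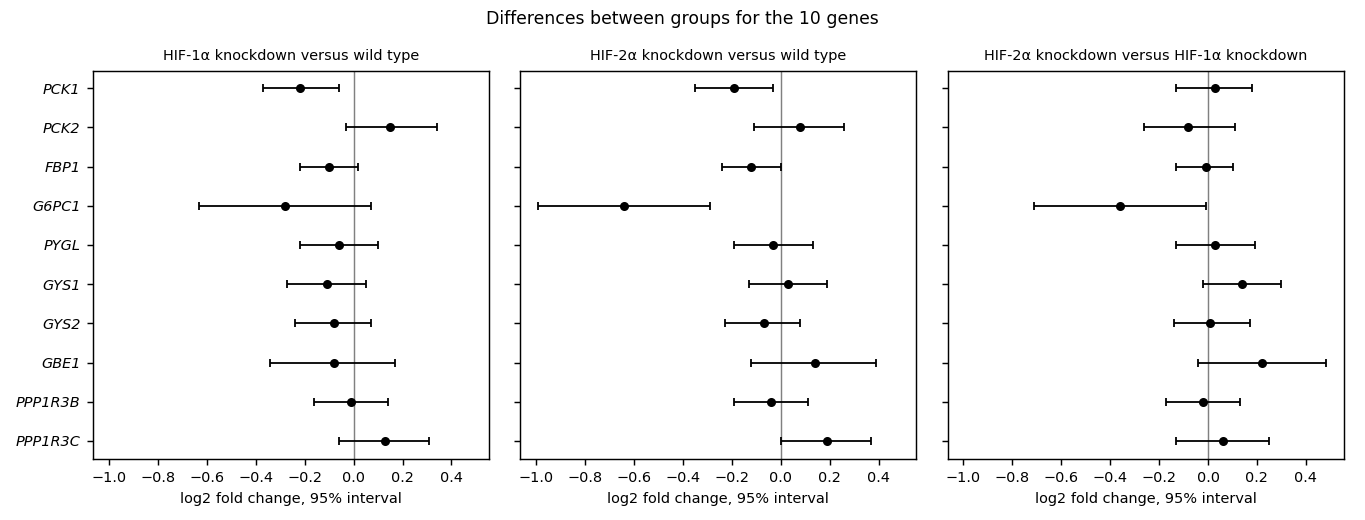
Log2 fold change (x axis) of the 10 genes with its 95% interval from limma in the 3 comparisons, each panel giving the first-named group minus the second. The intervals of G6PC1 are the widest, with -0.99 to -0.29 in HIF-2α knockdown against wild type, and those of the other 9 genes, as differences in probe signal, stay within 1.5-fold. GYS2 lies near the floor, where the interval does not bound a change in transcript, and the signals of FBP1, PPP1R3B and PCK1 are also low.

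Of 75 other genes of these pathways 66 were measured, and few were called. In HIF-1α knockdown against wild type none passed by limma and 8 had an unadjusted p under 0.05, with a median of 0.02 (0.815% of all genes called higher and 0.147% lower). Leaving out wild type replicate 3 gave 4 calls there, all higher: G6PC3, PGM2 and TAT, described below, and GOT1, an aspartate aminotransferase named after its value was seen. Quantile normalization gave 3 calls there, all lower: IRS1, PFKFB4 and PHKA2. In HIF-2α knockdown against wild type 1 was higher and none lower, and 13 of the 66 had an unadjusted p under 0.05, with a median of -0.03 (0.478% of all genes called higher and 0.310% lower). After quantile normalization 5 were called there, with PRKACB higher and FOXO1, PHKA2, PPARGC1A and PPP1CA lower. IRS1, PHKA2, FOXO1 and PPARGC1A were likewise named after their values were seen. Between the knockdowns 1 was called higher and 1 lower in HIF-2α knockdown (0.967% of all genes called higher and 1.80% lower). The median over the 66 was -0.05. Of the 66, 18 had an unadjusted p under 0.05, and 11 of these 18 were among the 25 regulators of gluconeogenesis. Among all genes, 13.2%, 12% and 13.6% had an unadjusted p under 0.05 in the 3 comparisons, in the order given here.

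PRKACB, a catalytic subunit of protein kinase A, which relays the glucagon signal, was the gene that rose in HIF-2α knockdown. It had 8.34, 8.43, 8.04 and 8.05 there, against 7.82, 7.82, 7.72 and 7.70 in wild type (limma, log2 fold change 0.45, SE 0.08, adjusted p = 0.0242). All 4 knockdown arrays lay above all wild type arrays, as for 3.40% of all genes. The call was kept under 14 of 21 alternative settings and lost without HIF-2α knockdown replicate 1 or wild type replicate 1, 2 or 4, after centring each array, in a fit of the 2 groups alone and with the raised-floor arrays left out. Over these settings the adjusted p ran from 0.00456 to 0.0994 and the value from 0.38 to 0.56. In HIF-1α knockdown PRKACB had 7.95, 7.92, 7.85 and 7.83. These too lay above all wild type arrays, as for 5.73% of all genes, with an uncalled difference of 0.12 (SE 0.08, limma adjusted p = 0.609).

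TAT, tyrosine aminotransferase, an amino acid catabolic enzyme that feeds gluconeogenesis, was lower in HIF-2α knockdown than in HIF-1α knockdown. Its values were 7.75, 7.71, 7.75 and 7.64 in HIF-2α knockdown, against 8.01, 8.08, 7.99 and 7.95 in HIF-1α knockdown (log2 fold change -0.29, SE 0.06, limma adjusted p = 0.0193). The HIF-2α knockdown arrays all lay lower, as for 5.35% of all genes. The call was kept under 17 of 21 settings and lost without HIF-1α knockdown replicates 2 or 3, HIF-2α knockdown replicate 4 or the arrays with a raised floor (adjusted p from 0.00786 to 0.0726, value from -0.31 to -0.27). In HIF-1α knockdown TAT stood 0.21 above wild type (SE 0.06, adjusted p = 0.117).

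PRKAA2, a catalytic subunit of AMP-activated protein kinase, which responds to low energy, was higher in HIF-2α knockdown than in HIF-1α knockdown. Its values were 9.68, 9.82, 9.17 and 9.41 in HIF-2α knockdown, against 8.91, 9.05, 8.97 and 9.17 in HIF-1α knockdown (log2 fold change 0.50, SE 0.12, limma adjusted p = 0.0378). The nearest arrays of the groups met at 9.17 after rounding and did not overlap before it, as for 3.73% of all genes. This call was kept under 8 of 21 settings, with adjusted p from 0.00612 to 0.137. It was lost after centring each array, in a fit of the 2 groups alone, with the replicate number as a block and with the raised-floor arrays left out. It was also lost when any 1 of 9 arrays was left out, the exceptions being HIF-2α knockdown replicate 3 and wild type replicates 2 and 3. Wild type had 9.23, 9.12, 9.38 and 9.26, with a mean between those of the knockdowns. Against wild type PRKAA2 was called in neither knockdown. It stood at 0.27 in HIF-2α knockdown (SE 0.12, limma adjusted p = 0.360) and at -0.22 in HIF-1α knockdown (SE 0.12, limma adjusted p = 0.466).

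Among the other genes with the smallest p in HIF-1α knockdown against wild type were PFKFB4, an enzyme that sets fructose 2,6-bisphosphate, an inhibitor of FBP1 (log2 fold change -0.34, SE 0.09, adjusted p = 0.0867), the phosphoglucomutase family member PGM2 (0.42, SE 0.12, adjusted p = 0.119, with all knockdown arrays above wild type, as for 5.73% of all genes), and G6PC3, the widely expressed glucose 6-phosphatase (0.34, SE 0.10, adjusted p = 0.127). In HIF-2α knockdown against wild type they were GPD1, the cytosolic glycerol 3-phosphate dehydrogenase (0.36, SE 0.09, adjusted p = 0.0803), PFKFB1, the liver form of the fructose 2,6-bisphosphate enzyme (0.24, SE 0.06, adjusted p = 0.0958), and PPP1CA, a catalytic subunit of protein phosphatase 1 (-0.28, SE 0.09, adjusted p = 0.181). Between the knockdowns PRKACB differed by 0.33 (SE 0.08, adjusted p = 0.0533) and PFKFB1 by 0.24 (SE 0.06, adjusted p = 0.0564). PFKFB4 and PGM2 shifted the same way in HIF-2α knockdown against wild type, by -0.27 and 0.30 (limma adjusted p = 0.187 and 0.332). G6PC3 stood at 0.08 there. Between the knockdowns PFKFB4 differed by 0.06, PGM2 by -0.12 and G6PC3 by -0.26.

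By role, the 13 measured further gluconeogenic enzymes had medians of 0.00 in HIF-1α knockdown and -0.03 in HIF-2α knockdown against wild type, and the 25 regulators of gluconeogenesis had 0.03 and -0.08, with 10 and 19 of them negative. Of all 18404 genes, 8837 and 10190 were negative in these comparisons, and 9567 and 8214 were positive. The 5 further genes of glycogen synthesis had medians of 0.16 and 0.11, and in both comparisons 4 of 5 were positive. The 8 further genes of glycogen breakdown had 0.06 and -0.03, and the 15 regulators of glycogen 0.02 and 0.11. Between the knockdowns the medians of these lists lay between -0.09 and 0.03.

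**Figure D4:**
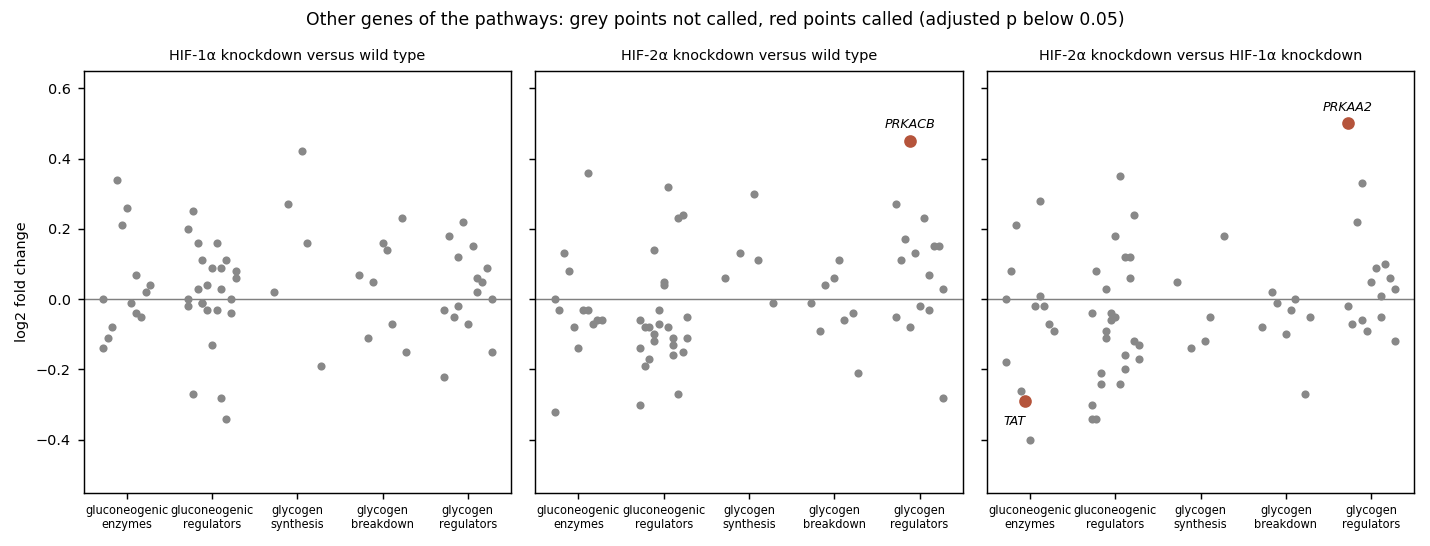
Log2 fold change (y axis) of the 66 other measured pathway genes by role (x axis) in the 3 comparisons, the first-named group minus the second. Red points are the genes called by limma: PRKACB at 0.45 in HIF-2α knockdown against wild type, and PRKAA2 at 0.50 and TAT at -0.29 between the knockdowns.

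The genes whose 12 array values lay closest to those of G6PC1, each centred on its own mean, were TMEM45B, SLC2A1, which encodes a glucose transporter, and CTDSPL. Their root mean square difference from G6PC1 was 0.12, 0.13 and 0.13, where G6PC1 itself varied by 0.35 around its mean. In HIF-2α knockdown against wild type they differed by -0.68, -0.60 and -0.51, and in HIF-1α knockdown by -0.42, -0.21 and -0.15. They were picked for likeness on these same 12 arrays, so differences like those of G6PC1 follow from the choice. For PCK1 the closest were ADAP2, TTC39A and LRRN4CL, each at 0.08 against a variation of 0.13 of PCK1 itself, and for FBP1 they were HPN-AS1, TMEM74B and SIRT4, at 0.03, 0.04 and 0.04 against 0.08. These likenesses were ranked over all genes on 12 arrays and were not tested.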

How the data were processed

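The authors deposited 1 table of log2 expression values for 32321 probe sets on 12 arrays. That the logarithm is to base 2 was read from the range, 5.93 to 15.05. The sources used here do not state how background, probe summary and normalization were handled. Array medians lay between 7.29 and 7.41. Precision is limited by the number of arrays.

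Gene symbols came from GEO's platform annotation (19158 with 1 symbol, 1388 with several, 11775 with none). Symbols were brought up to date by Entrez identifier from RefSeq's gene table (GRCh38.p14), where 19128 matched by identifier and 4 by symbol and 26 were kept as given. Where a gene had several (637 genes), the probe set of highest mean was used, leaving 18404 genes.

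Groups were compared with limma 3.58.1 in R 4.3.3 (lmFit with 1 mean per group over all 12 arrays, eBayes, Benjamini-Hochberg over all genes), with no filter on level. The members, gene lists and settings were chosen with earlier results of these data known. Named beyond the 10 members, HIF1A and EPAS1 are the pathway genes called and the 4 with the smallest p in each comparison, the 3 genes most like each of the 3 members with the largest moderated F, and examples of the marker lists. A few pathway genes called only under an alternative setting are also named. Alternatives were quantile normalization, centring each array on its median, dropping genes below the 25th percentile of mean level, fitting the 2 groups alone, limma trend, averaging or separating probe sets, a replicate block, leaving out the 3 arrays with a raised floor, and leaving out each array.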

Additional observations from a re-analysis of the deposited data

Results flagged for a closer look

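In 63 sets of 4 arrays (21 genes in 3 groups), 3 held an array whose distance from the nearest other was, as a share of the range, above Dixon's 95% critical value. Chance flags about 1 in 20 such sets.

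G6PC1 was 8.85 on wild type replicate 3, against 7.93 to 8.05 on the other wild type arrays. PYGL was 10.62 on HIF-1α knockdown replicate 3, against 10.52 to 10.53 on the other arrays of that group, a narrow range. PFKFB4 was 7.89 on HIF-2α knockdown replicate 3, against 7.59 to 7.64 on the others.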

How the results depend on the processing

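Genes called in HIF-1α knockdown against wild type numbered 177 (150 higher, 27 lower), and 254 (140 higher, 114 lower) after quantile normalization, 85 after centring, 396 with the 2 groups alone and 22 (8 higher, 14 lower) without the arrays with a raised floor. In HIF-2α knockdown against wild type they numbered 145 (88 higher, 57 lower), and 404 (141 higher, 263 lower) after quantile normalization, 72 (34 higher, 38 lower) after centring, 64 with the 2 groups alone, 286 with limma trend and 37 (14 higher, 23 lower) without the arrays with a raised floor. Between the knockdowns they numbered 509, and 888, 337 and 259 after quantile normalization, centring and leaving out the arrays with a raised floor. Leaving out 1 array gave 50 to 483, 61 to 219 and 211 to 618 in these comparisons, the lowest without HIF-1α knockdown replicate 3, wild type replicate 4 and HIF-1α knockdown replicate 3, the highest without wild type replicate 3 in the first 2 and without HIF-2α knockdown replicate 1 in the last.

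Members called stayed at 0 in HIF-1α knockdown against wild type, also without any 1 array (0 to 0). In HIF-2α knockdown against wild type 1, G6PC1, passed with limma trend and 1, G6PC1, with the replicate block, and leaving out 1 array gave 0 to 1 here and 0 to 1 between the knockdowns, in both cases when wild type replicate 3 was dropped. Other pathway genes called in HIF-1α knockdown against wild type were 3 after quantile normalization, all lower. They were 1, higher, with the 2 groups alone and 1, lower, with limma trend. Without 1 array they numbered 0 to 4, the 4, all higher, when wild type replicate 3 was dropped. In HIF-2α knockdown against wild type they were 5 (1 higher, 4 lower) after quantile normalization and 2 (2 higher, 0 lower) with limma trend. They were 0 after centring, with the 2 groups alone and without the arrays with a raised floor, and 0 to 1 without 1 array. Between the knockdowns they were 6 (3 higher, 3 lower) after quantile normalization and 4 (3 higher, 1 lower) with limma trend. They were 1 after centring, with the 2 groups alone and without the arrays with a raised floor, and 0 to 3 without 1 array. HIF1A differed by -1.24 (adjusted p = 0.103) when the raised-floor arrays were dropped, which keeps 2 wild type arrays, and by -1.29 to -1.16 without 1 array. EPAS1 kept its call throughout, with -1.18 to -1.04 without 1 array.

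Signs of uncalled members turned as follows. Without the arrays with a raised floor, GYS2 was 0.05 and PPP1R3B 0.06 in HIF-1α knockdown, PCK2 -0.07, GYS2 0.03 and PPP1R3B 0.08 in HIF-2α knockdown, and GYS2 -0.02 and PPP1R3B 0.02 between the knockdowns. After quantile normalization GYS1 was -0.03 in HIF-2α knockdown and GYS2 -0.03 between the knockdowns, where FBP1 was 0.01 after centring. Without 1 array, PYGL ran from -0.10 to 0.00 and PPP1R3B from -0.05 to 0.03 in HIF-1α knockdown, and PYGL from -0.08 to 0.04, GYS1 from -0.02 to 0.09 and PPP1R3B from -0.07 to 0.01 in HIF-2α knockdown. Between the knockdowns PCK1 ran from -0.01 to 0.07, FBP1 from -0.04 to 0.01, PYGL from -0.02 to 0.07, GYS2 from -0.02 to 0.03, PPP1R3B from -0.06 to 0.02 and PPP1R3C from 0.00 to 0.14. The cause was not tested. FBP1 and GYS2 lay below the 25th percentile of mean level and have no value with that filter.

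The labels do not say whether equal replicate numbers share an experiment, and correlations between the arrays cannot settle it. Of 12 same-numbered pairs 6 had deviations from the group means that correlated above 0.1 (r from -0.26 to 0.51), and 1 of 12 arrays correlated best with its own number in both other groups. With the number as a replicate block 234, 202 and 562 genes were called, and G6PC1 differed by -0.64 in HIF-2α knockdown against wild type (adjusted p = 0.0288), which passed, while PRKAA2 between the knockdowns did not pass with the block (0.50, adjusted p = 0.0523).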
